A study of Schizosaccharomyces pombe with 4 samples.

Results

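The 8 hexose transporter genes of fission yeast, ght1 to ght8, were taken as the annotated genes of that name, 8 of the 5129 protein-coding genes and of the 9111 annotated units in the table. Nascent and total RNA were compared in wild-type Schizosaccharomyces pombe by native elongating transcript sequencing (NET-seq), in which RNAs held by RNA polymerase II (RNAPII) are recovered and sequenced from their 3′ ends. The 4 libraries were 2 IP libraries, made from the RNA recovered with RNAPII, and 2 input libraries, made by the same protocol from the total RNA of the same 2 cultures. All of them came from YAM2492, a single strain in which the RNAPII subunit Rpb3 carries a FLAG tag, grown exponentially in rich (YES) medium. No other medium, sugar or genotype was sampled, and an untagged control was not analysed here. All 8 genes were measured, and each had a read in at least 1 library.

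The Ght proteins are carriers of the plasma membrane that belong to the major facilitator superfamily and let hexoses enter the cell. Fission yeast uses glucose as its preferred carbon source, and its transporter genes are known to be tuned to the sugar supply, some of them being repressed when glucose is plentiful and induced when it runs low. In earlier work Ght5 was characterised as the main high-affinity glucose carrier needed for division at low glucose, Ght1 and Ght2 as glucose carriers, Ght6 as a carrier that accepts fructose well, and Ght3 as a gluconate carrier.

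The members are close copies of each other, and only reads with a single place in the genome had been counted, so the sequences decide which part of each gene could be seen. Aligned over their coding sequences, ght5 and ght8 were identical at 92.2% of positions and ght3 and ght4 at 81.8%, whereas the other pairs lay between 61.9% and 78.6%. The longest runs without a difference in these pairs are shown because no 50-base read lying inside them can be given to a gene. The run of ght5 (chrIII:213319-213566, + strand, starting at base 1007 of the coding sequence) recurs base for base in ght8 (chrIII:227147-227394, − strand), and its capitals mark the 72 bases that ght6 carries as well. The run of ght3 (chrI:83791-84030, + strand) recurs in ght4 (chrII:158410-158649, + strand).
ght5 and ght8, 248 bases: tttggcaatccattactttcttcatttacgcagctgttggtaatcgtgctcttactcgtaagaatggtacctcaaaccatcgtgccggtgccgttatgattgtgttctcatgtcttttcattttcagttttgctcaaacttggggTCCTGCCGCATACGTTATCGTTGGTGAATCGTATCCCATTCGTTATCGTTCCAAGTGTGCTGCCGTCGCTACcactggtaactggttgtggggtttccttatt
ght3 and ght4, 240 bases: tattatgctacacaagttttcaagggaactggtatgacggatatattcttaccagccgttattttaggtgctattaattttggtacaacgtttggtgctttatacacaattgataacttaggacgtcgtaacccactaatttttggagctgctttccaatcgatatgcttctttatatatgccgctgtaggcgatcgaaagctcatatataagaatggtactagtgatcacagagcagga

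The share of each gene open to unique reads followed from these copies. Of the 50-base windows of ght5, 64.0% had no other site in the genome within 2 mismatches, and 79.9% did so in ght8. Over the coding segments alone the shares were 50.9% in ght5 and 47.5% in ght8, and 780 windows of ght5 had their other site in ght8. ght3 and ght4 shared 301 windows, which left 81.4% of the coding windows of ght3 and 81.5% of those of ght4. ght2 and ght7 could be read almost throughout, at 99.9% and 100% of their windows. Every other site found for a ght window lay in another ght gene, so that the levels below leave out reads from these windows, most of all for ght5 and ght8.

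**Figure D1:**
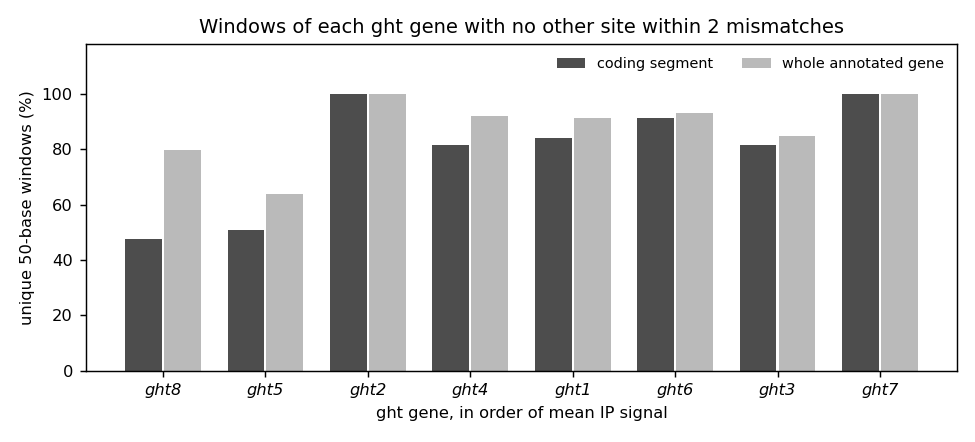
Percentage of 50-base windows with no other genomic site within 2 mismatches (vertical axis) for each ght gene (horizontal axis), over the coding segment (dark bars) and the whole annotated gene (light bars). The coding segments of ght8 and ght5 are the lowest, at 47.5% and 50.9%, and ght7 stands at 100% in both.

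The libraries held 7100000 and 7117477 reads in IP and 9082385 and 9823089 reads in input, on a scale anchored to the first IP library. Genes for tRNA, rRNA and snRNA took 40.0% and 41.3% of the IP reads but 95.4% and 91.0% of the input reads. Levels are given as RPKM, the usual reads per kilobase of gene scaled to library depth. The median protein-coding gene stood at 26.1 and 24.6 RPKM in IP, against 0.925 and 1.80 RPKM in input, so the input libraries themselves differed by 0.96 on the log2 scale at the median. Each IP over input value below depends on these totals, and other scalings were tried for the members and the listed genes. Intervals on reads cover counting error only.

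Transcription of the family was concentrated in 3 members, ght8, ght5 and ght2, which together made up 97.9% of the summed RPKM of the 8 genes in both IP libraries, against 97.8% and 97.9% in input. ght8 (SPCC548.06c, chromosome III, 226336 to 230546, − strand) had the highest nascent signal. It held 9357 and 9082 reads in IP, or 313 and 303 RPKM, against 301 and 676 reads in input, or 7.87 and 16.3 RPKM. With ranks 131 and 128 among the 5129 protein-coding genes, ght8 lay in the top 3% in IP and at ranks 403 and 395 in input.

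ght5 (SPCC1235.14, chromosome III, 212160 to 214376, + strand), the high-affinity glucose carrier, came next. It held 3383 and 3440 reads in IP, or 215 and 218 RPKM, against 321 and 316 reads in input, or 15.9 and 14.5 RPKM. Its replicates lay within a few percent of each other in IP. In input ght5 differed from the general pattern, since its second library was 0.14 below the first on the log2 scale (-0.14) whereas the median protein-coding gene was 0.96 above. ght5 therefore held rank 245 in the first input library and rank 427 in the second.

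ght2 (SPBC4B4.08, chromosome II, 3427180 to 3429424, + strand), a glucose carrier, held 2136 and 2442 reads in IP, or 134 and 153 RPKM, against 46 and 110 reads in input, or 2.26 and 4.99 RPKM. Its ranks were 350 and 312 in IP and 1148 and 1053 in input, the widest gap between both kinds of library among these 3 genes. The input difference between replicates, 1.14 on the log2 scale for ght2 and 1.05 for ght8, was close to that of the median gene.

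**Figure D2:**
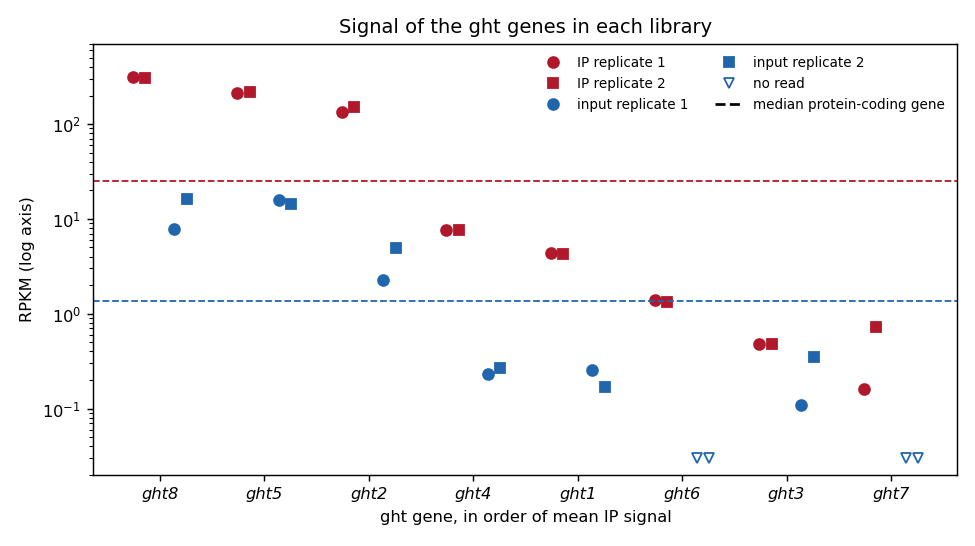
RPKM on a log axis for each ght gene, with IP libraries (red) left of input libraries (blue), circles for replicate 1 and squares for replicate 2; open triangles mark libraries with no read and dashed lines the median protein-coding gene of each kind of library. ght8, ght5 and ght2 lie above the IP median and the other 5 genes below it, and ght6 and ght7 have no input read.

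The other 5 members were all below the median protein-coding gene in each library. ght4 (SPBC1683.08, chromosome II, 155751 to 159570, + strand) held 206 and 207 reads in IP, or 7.60 and 7.61 RPKM, against 8 and 10 reads in input, or 0.231 and 0.266 RPKM. ght1 (SPCC548.07c, chromosome III, 232288 to 235289, − strand), a glucose carrier, held 93 and 91 reads in IP, or 4.36 and 4.26 RPKM, against 7 and 5 reads in input, or 0.257 and 0.170 RPKM. Both genes were thus read steadily in IP, with replicates within a few reads of each other, at ranks 4500 to 4752 of 5129, and at only 5 to 10 reads per library in input.

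ght6, ght3 and ght7 were close to the floor. ght6 (SPCC1235.13, chromosome III, 204706 to 206717, + strand), the carrier that accepts fructose, held 20 and 19 reads in IP, or 1.40 and 1.33 RPKM, and no read in input, which allows up to 0.164 and 0.152 RPKM in the input libraries at 3 reads each. Against that floor its mean IP level was at least 8.63-fold higher. ght3 (SPAC1F8.01, chromosome I, 82746 to 84786, + strand), the gluconate carrier, held 7 and 7 reads in IP, or 0.483 and 0.482 RPKM, against 2 and 7 reads in input, or 0.108 and 0.349 RPKM. ght7 (SPBC1348.14c, chromosome II, 38514 to 40277, − strand), a carrier with no sugar assigned here, held 2 and 9 reads in IP, or 0.160 and 0.717 RPKM, and no read in input. The first IP library of ght7 was under its 3-read floor of 0.240 RPKM, and its IP replicates spanned both of those of ght3.

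The order in IP was ght8, ght5, ght2, ght4, ght1, ght6, ght3 and ght7, and neighbours in it did not overlap except ght3 and ght7. In input ght5 came first with a mean of 15.2 ± 1.01 RPKM (SD, n = 2) and ght8 second with 12.1 ± 5.99 RPKM (SD, n = 2), and their replicates overlapped. ght2 followed apart from both, then ght4, ght3 and ght1, which overlapped each other in turn. As a share of the family RPKM, ght8 made up 46.3% and 44.0% in IP against 29.5% and 44.6% in input, and ght5 made up 31.8% and 31.7% in IP against 59.8% and 39.6% in input. ght2 made up 19.8% and 22.2% in IP against 8.46% and 13.6% in input. The shares were alike between IP replicates but not between input replicates, where the ght8 share of the second library was as high as in IP.

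Dividing reads by the unique windows of each gene in place of its length, an alternative chosen after seeing the data, brought ght5 closer to ght8 in nascent RNA. The means were then 390 for ght8 (depth-scaled reads per kb of unique windows), 346 for ght5 and 147 for ght2 in IP, and 15.3 for ght8 and 24.3 for ght5 in input. On that scale the input replicates of ght5 and ght8 no longer overlapped, with ght5 higher in both, and the order in IP was unchanged.

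To compare nascent with total RNA across the family, log2(RPKM + 1) was fitted over all 8912 units with a read by limma, with Benjamini-Hochberg adjustment. At an adjusted p under 0.05, 6 of the 8 ght genes were higher in IP and 0 were lower. The background for this count is that 92.8% of all units and 98.3% of protein-coding genes were higher in IP, with 0.92% of units and 0.0789% of protein-coding genes lower. The median log2 change was 2.46 over the 8 ght genes and 3.28 over all protein-coding genes tested. The IP levels of ght1, ght3, ght4, ght6 and ght7 on the log2(RPKM + 1) scale were all under 3.28. The family median was thus below 3.28 whatever the input. At a pseudocount of 0.1 RPKM the family and protein-coding medians were 3.85 and 4.002. The order was reversed under some other scalings. The family and protein-coding medians were 1.22 and 0.92 with totals without tRNA, rRNA and snRNA, and 0.79 and 0.07 with edgeR and TMM. They were 0.71 and -0.01 with DESeq2, 0.05 and -0.05 with quantile normalization, and -1.05 and -0.23 after centring on the protein-coding median. The order after centring was fixed in the same way as with library totals.

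Relative to the protein-coding median of 3.28, the 3 abundant genes were above it and the other 5 below at a pseudocount of 1 RPKM. The IP levels of these 5 on the log2(RPKM + 1) scale were all under 3.28. Their place below the median was thus fixed whatever the input. At a pseudocount of 0.1 the median was 4.002, and ght4 (4.47) was above it and ght5 (3.82) below, and with edgeR and TMM, where the median was 0.07, ght4 (0.91) and ght1 (0.32) were above it and ght5 (-0.33) below. ght2 had a log2 change of 5.03 (SE 0.411, adjusted p = 0.000784), 1.75 above the median, and ght8 one of 4.64 (SE 0.455, adjusted p = 0.00115), 1.36 above it. ght5 changed by 3.75 (SE 0.295, adjusted p = 0.000748), 0.47 above. ght4 changed by 2.78 (SE 0.127, adjusted p = 0.000632), ght1 by 2.13 (SE 0.118, adjusted p = 0.000632) and ght6 by 1.24 (SE 0.0893, adjusted p = 0.000675). ght3 and ght7, with log2 changes of 0.28 (SE 0.131, adjusted p = 0.109) and 0.50 (SE 0.218, adjusted p = 0.0916), did not pass. With the replicate number as a block, since the IP and input libraries of a number were taken to share a culture, ght7 passed (adjusted p = 0.00745), against a background of 95.0% of units higher and 0.886% lower. The pseudocount of 1 RPKM understates changes of low genes: the ratio of pooled depth-scaled reads was 30.5 (95% exact interval 19.1 to 52.0) for ght4, 20.4 (11.4 to 40.2) for ght1 and 2.07 (0.834 to 5.42) for ght3, against 39.0 (33.3 to 46.1) for ght2, 25.1 (23.5 to 26.8) for ght8 and 14.2 (13.1 to 15.5) for ght5.

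The same comparison was made under other scalings, and only ght2 and ght8 kept their call in every one tried. When each library was centred on its protein-coding median, which shifted all changes by 3.50 on the log2 scale, ght2 (1.53) and ght8 (1.14) stayed higher in IP, against a background of 9.19% of units higher and 54.5% lower. ght5 (0.24, adjusted p = 0.314) did not pass. The other 5 members came out below 0, at -0.72 for ght4, -1.37 for ght1, -2.26 for ght6, -3.23 for ght3 and -3.01 for ght7, but their IP levels on the log2(RPKM + 1) scale were all under the shift of 3.50, so that these signs were fixed whatever the input and do not show lower nascent signal. ght6 and ght7 had no input read at all. A count test on the recovered reads, edgeR with TMM factors, called ght2, ght4 and ght8 higher and ght3 lower, with 14.7% of units called in each direction. DESeq2 called ght2 and ght8 higher and ght3 lower, against 8.1% of units higher and 12.7% lower. Quantile normalization gave 2 ght genes higher and 1 lower, against 10.3% and 7.89% of units, and totals without tRNA, rRNA and snRNA gave 4 higher and 1 lower, against 52.8% and 6.23%. Leaving centring aside, ght3 was thus called lower in IP under 4 scalings, though not under library totals, with 14 IP reads and 9 input reads behind it.

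**Figure D3:**
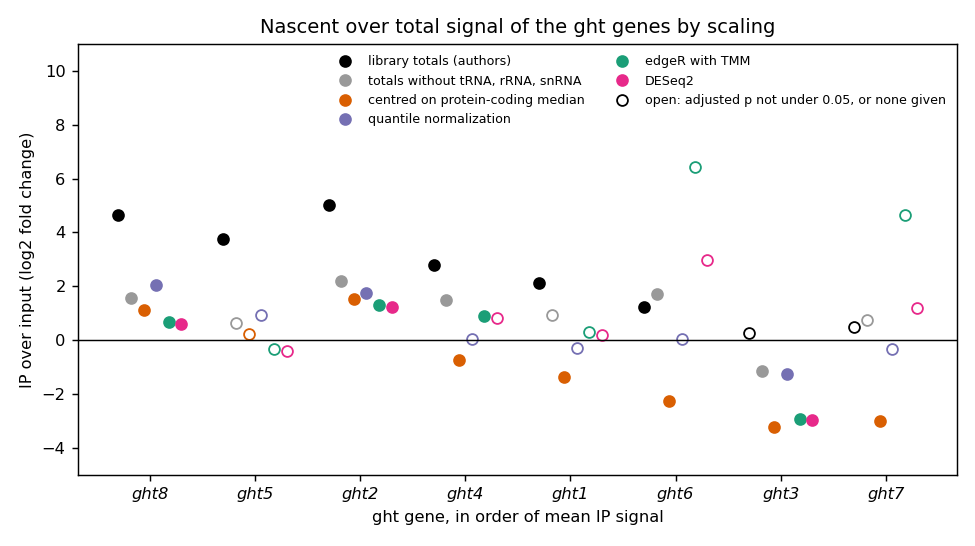
Log2 fold change of IP over input (vertical axis) for each ght gene under 6 scalings (colours); filled points have an adjusted p under 0.05 and open points do not or were given none, and the sizes for ght6 and ght7, with no input read, depend on the pseudocount or prior count. ght8 and ght2 are filled and above 0 under all 6 scalings, ght3 is below 0 in 5 of them, and ght5 moves to either side of 0.

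The pairs of libraries differed in how far the 3 abundant genes stood from the median protein-coding gene. ght2 was 1.78 above it in the first pair and 1.75 above it in the second, and ght8 was 1.55 and 1.20 above it. ght5 was 0.08 above it in the first pair and 0.89 in the second. The position of ght5 thus differed between the pairs, while those of ght2 and ght8 were close between pairs.

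Antisense units, noncoding RNAs annotated on the other strand, were compared with their sense gene where they overlapped it by at least 50 nt. They were found for 5 of the 8 members, ght1, ght4, ght5, ght6 and ght7, against 36.2% of all protein-coding genes, and none was annotated for ght2, ght3 or ght8. Antisense signal outside annotated units was not measured. The lack of a unit thus does not show that ght2, ght3 and ght8 lack antisense transcription. The classes are annotated ncRNAs, new noncoding transcription units (nc-TU) and XUTs, transcripts that accumulate without the cytoplasmic exonuclease Exo2. The libraries are strand-specific, but the share of reads that fall on the wrong strand was not measured.

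ght6 was the member at which antisense exceeded sense most. SPNCRNA.1118 (chromosome III, 204633 to 206912, − strand) covers 100% of ght6. It held 521 and 529 reads in IP, or 32.2 and 32.6 RPKM, against 14 and 27 reads in input, or 0.676 and 1.21 RPKM. In IP this was 23.0- and 24.6-fold the sense signal, or 96.3% (95% Wilson interval 94.4 to 97.6) and 96.5% (94.6 to 97.8) of the reads of both units. The XUT annotated there, XUT0023, holds the same reads. SPNCRNA.1118 was higher in IP than in input by 4.12 (SE 0.232, adjusted p = 0.000632), and it remained higher after centring on the protein-coding median (0.61, adjusted p = 0.00723). An antisense unit with more IP signal per kb than its gene was found for 4.99% of protein-coding genes, 256 in number.

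ght4 carried several antisense units. SPNCRNA.1319 (chromosome II, 157362 to 158316), which covers 25.0% of the gene and holds the same reads as XUT0171, had 97 and 88 reads in IP, or 14.3 and 12.9 RPKM, against 2 and 4 reads in input, or 0.231 and 0.426 RPKM. Per kb it was 1.88- and 1.70-fold the sense signal averaged over the whole of ght4 in IP. It held 32.0% and 29.8% of the IP reads of both units. Sense reads within the stretch it covers were not counted separately. SPNCRNA.1318, which overlaps the 5′ part of ght4, had 5.18 and 5.76 RPKM in IP against 0.0519 and 0.240 RPKM in input, and was below the sense gene. Only 42.0% of the length of SPNCRNA.1318 lies in ght4, so its level is not that over ght4 alone. XUT0172 had 3.71 and 1.85 RPKM in IP and no read in input. On the sense strand, SPNCRNA.298 lies wholly inside ght4, and its 45 and 38 IP reads were counted for both, so they cannot be assigned to one of them.

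The remaining antisense units were low. novelncTU_437 covers 83.3% of ght5 and had 26 and 25 reads in IP, or 1.94 and 1.86 RPKM, against 1 and 3 reads in input, which was 0.763% and 0.722% of the IP reads of the pair. SPNCRNA.1121 and XUT0806, on the other strand of ght1, had 0.875 and 0.810 RPKM and 0.689 and 2.06 RPKM in IP, all below sense ght1. Only 36.6% of the length of SPNCRNA.1121 lies in ght1, so its level is not that over ght1 alone. XUT0960, antisense to ght7, held 1 and 0 reads in IP against 2 and 2 in input, and XUT0961 held none.

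**Figure D4:**
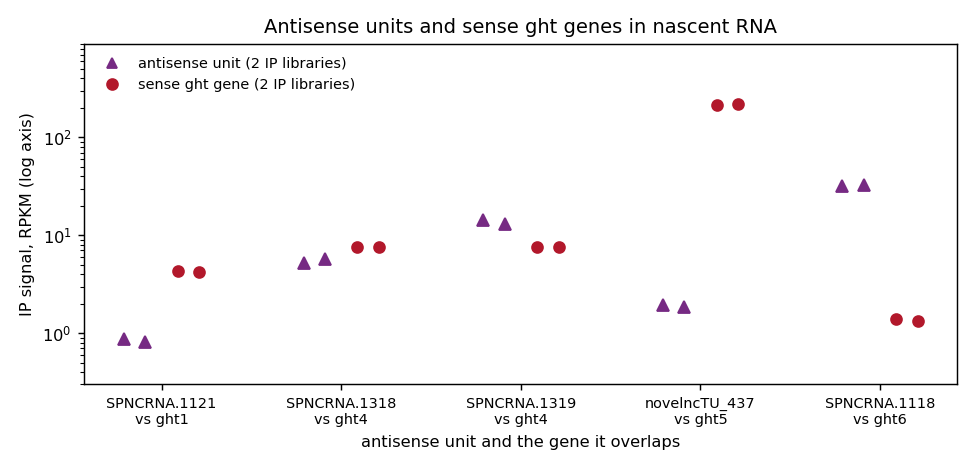
IP signal in RPKM on a log axis for 5 antisense units (triangles) and the sense ght gene each overlaps (circles), 1 point per IP library. SPNCRNA.1118 at 32.2 and 32.6 RPKM lies far above sense ght6 and SPNCRNA.1319 above sense ght4, whereas the other 3 units lie below their genes.

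The annotated genes extend well beyond their coding segments, and the reads were divided accordingly. In ght8, 61.0% of the annotated length lies outside the coding segment, with 2146 bases on the 5′ side and 421 on the 3′ side. These parts held 66.8% and 58.7% of the ght8 reads in IP, against 59.8% and 46.4% in input. RefSeq begins ght8 at base 228845, inside this 5′ side, so much of that side is not part of ght8 in RefSeq. Reads on the 5′ and the 3′ side were not counted separately. In ght5, where 26.0% of the length lies outside, the outside parts held 33.6% and 30.6% of the reads in IP against 29.0% and 23.4% in input. The share outside was thus higher in both IP libraries than in either input library of ght5, though the interval of the second IP library (29.1% to 32.2%) overlapped that of the first input library (24.3% to 34.2%).

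The comparison with length changed once unique windows were used, because the copies lie in the coding segments. The outside parts hold 77.2% of the unique windows of ght8 and 41.5% of those of ght5. Per kb of unique windows the outside parts of ght8 had 343 and 292 in IP against 577 and 697 for its coding segment, and those of ght5 had 278 and 257 against 390 and 413. Per kb of length, by contrast, the outside parts of ght5 were above its coding segment (193 and 204 RPKM) in both IP libraries. ght2, with few copied windows, held 19.6% and 19.5% of its IP reads outside a coding segment that leaves 28.9% of the length.

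The ght genes are grouped on chromosome III, where ght6, ght5, ght8 and ght1 lie in 30.6 kb that hold 10 protein-coding genes. ght8 and ght1 are direct neighbours on the − strand, 1741 bp apart, and had 308 ± 7.03 and 4.31 ± 0.0738 RPKM in IP (SD, n = 2 each). SPCC1235.17 and SPCC1235.18, between ght6 and ght5, had 4.10 ± 0.253 and 5.37 ± 0.470 RPKM in IP (SD, n = 2 each). dga1, 920 bp downstream of ght5 and coding for a diacylglycerol acyltransferase, had 31.6 ± 0.938 RPKM in IP, and urm1, 576 bp beyond the 3′ end of ght8 and coding for a ubiquitin-related modifier, had 17.2 ± 1.37 RPKM (SD, n = 2 each). Levels within this stretch thus differed widely between direct neighbours, and both abundant members stood above all other genes of the stretch.

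Outside chromosome III the members stand alone. mal1, which codes for a maltase and ends 120 bp upstream of ght4 on the same strand, had 15.6 and 12.1 RPKM in IP against 0.133 and 0.246 RPKM in input. usp105, 293 bp downstream of ght2 and coding for a component of the U1 snRNP, had 25.9 and 27.6 RPKM in IP against 1.52 and 3.14 RPKM in input. The neighbours of ght3 and ght7 near the chromosome ends included genes with few or no reads, such as shu1 with 1 and 2 IP reads and 0 input reads.

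**Figure D5:**
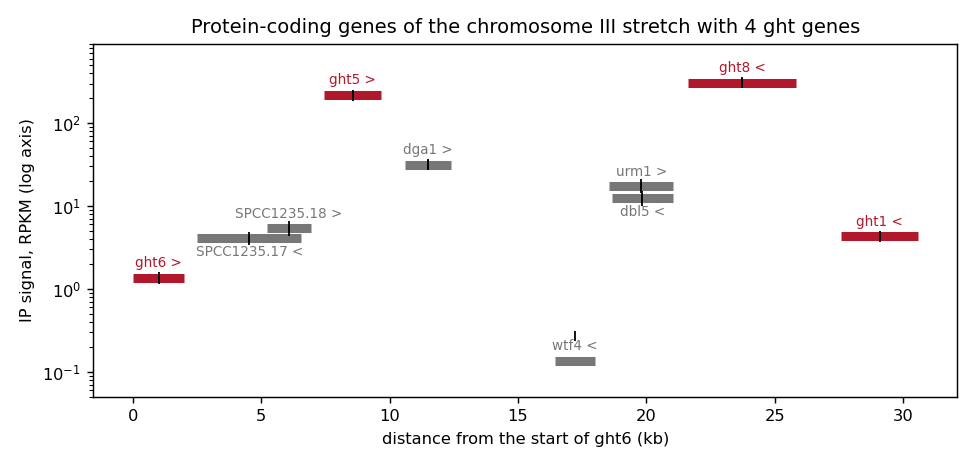
IP signal in RPKM on a log axis against distance from the start of ght6 in kb, for the 10 protein-coding genes of the stretch on chromosome III; bars span each gene at its mean, ticks mark both IP libraries (a library at 0 is not drawn), red bars are ght genes and > or < gives the strand. ght5 and ght8 stand at 216 and 308 RPKM, and ght6 and ght1 at 1.36 and 4.31.

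Promoters were searched for 3 short motifs on both strands, over 250 bases before to 50 bases after the RefSeq gene start: CCCCGC, the core of a GC box bound in budding yeast by the glucose repressor Mig1, CCCCTC, a stress-response element, and TATAAA, the TATA box. CCCCGC was present in ght1, ght4 and ght8, and in 1.10% (56) of all 5112 promoters. CCCCTC was present in none of the members and in 2.11% of promoters, and TATAAA in ght1, ght2, ght4, ght5 and ght6 and in 48.1% of promoters. The GC box windows are shown because 3 members share a motif that few promoters hold, with the motif in capitals. ght8 holds it at 85 and 77 bases before the RefSeq start, ght1 at 73 bases and ght4 at 91 bases before it.
ght8 (chrIII:228913-228942, − strand): gtcaaggacactCCCCGCaaCCCCGCaagc
ght1 (chrIII:235251-235280, − strand): aatttgcagtatCCCCGCatttggttgagt
ght4 (chrII:155669-155698, + strand): acaggtactggtCCCCGCttgtgcaacaat

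These 3 genes held places 1, 4 and 5 in the IP order, with 308 RPKM for ght8, 7.60 RPKM for ght4 and 4.31 RPKM for ght1 in IP. The RefSeq start of ght8, base 228845, lies within the longer gene of the table, which begins at base 230546, so the ght8 window is upstream of one annotated start and downstream of the other. The same holds for ght1, whose starts are base 235195 in RefSeq and base 235289 in the table. The RefSeq starts of ght3, ght5, ght6 and ght7 are those of their coding segments. A match is a run of letters and not a binding site, and a motif without a match in this window may lie elsewhere.

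Genes known to control hexose uptake were counted from a list of 22, which holds the glucose-sensing cAMP pathway, the AMP-activated kinase pathway, transcription factors, the arrestin and ubiquitin ligase that act on Ght5, Tor kinase signalling and hexokinases. All 22 were higher in IP, against 98.3% of protein-coding genes. After centring, 7 were higher and 3 lower, against 12.5% and 35.0% of protein-coding genes, and the median change of the list was 0.32 against -0.23 for all protein-coding genes tested.

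scr1, which codes for a zinc finger repressor of glucose-repressed genes, had 71.1 and 75.8 RPKM in IP against 1.06 and 2.26 RPKM in input, a log2 change of 4.84 (centred 1.34, adjusted p = 5.03e-06). rst2, coding for an activator of genes under cAMP control, changed by 3.95 (centred 0.45, adjusted p = 0.0390). ssp1, the kinase that activates the AMP-activated kinase, changed by 4.62 (centred 1.11, adjusted p = 6.00e-05), and its target ssp2 by 3.66 (centred 0.15, adjusted p = 0.528). gad8, an AGC kinase downstream of TORC2 that is needed for Ght5 at the cell surface, changed by 4.56 (centred 1.06, adjusted p = 6.66e-05). aly3, the arrestin, and pub3, the ubiquitin ligase, changed by 4.13 (centred 0.63, adjusted p = 0.00617) and 4.26 (centred 0.76, adjusted p = 0.00197). The genes of this list that stayed higher after centring thus included the repressor, an activator, 2 kinases and both genes that act on Ght5 at the membrane, with cgs1, the regulatory subunit of protein kinase A, at 0.48 (adjusted p = 0.0363). Of these, scr1, ssp1 and gad8 also passed with quantile normalization and with DESeq2. rst2 and cgs1 passed with neither. aly3 did not pass with quantile normalization (adjusted p = 0.0515), and pub3 did not with DESeq2 (adjusted p = 0.128).

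The hexokinases, which phosphorylate the sugar once it is inside, were on the other side. hxk1 had 66.7 and 80.1 RPKM in IP against 6.09 and 15.2 RPKM in input, a log2 change of 2.79 that was -0.71 after centring (adjusted p = 0.00496). hxk2 had 230 and 213 RPKM in IP against 27.9 and 47.7 RPKM in input, and a log2 change of 2.57 that was -0.94 after centring (adjusted p = 0.000144). git7, of the cAMP pathway, was the third that was lower after centring (-0.52, adjusted p = 0.0390). With edgeR and TMM hxk1 (-1.19, adjusted p = 0.000138) and hxk2 (-1.49, adjusted p = 1.22e-05) stayed lower. git7 was not lower there (0.17, adjusted p = 0.763) or with DESeq2 (0.08, adjusted p = 0.927). With quantile normalization 0 of the 22 control genes were lower. Per kb of gene, hxk2 thus had about the nascent signal of ght5 and a higher input signal. The RPKM of ght5 leaves out reads from its copied windows. Per kb of unique windows ght5 stood at 346 in IP and 24.3 in input, and the windows of hxk2 were not examined.

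Of the other carriers, sut1, a sucrose and maltose transporter, had 22.5 and 21.4 RPKM in IP against 0.400 and 0.404 RPKM in input and changed by 4.03 (centred 0.53, adjusted p = 0.0328). The inositol transporter genes itr1 and itr2 changed by 2.98 and 3.19, and idn1, the gluconokinase gene, by 3.20 with 41.3 and 42.5 RPKM in IP. These 3 genes turned below 0 under some other scalings. After centring itr1 was lower in IP (-0.52, adjusted p = 0.0222), while itr2 (-0.32, adjusted p = 0.132) and idn1 (-0.30, adjusted p = 0.160) did not pass. With edgeR and TMM itr1 (-0.65, adjusted p = 0.0147), itr2 (-0.76, adjusted p = 0.000933) and idn1 (-0.55, adjusted p = 0.0234) were all lower. idn1 was thus transcribed far above ght3, whose product takes up gluconate.

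The 3 protein-coding genes outside the family with levels most like those of ght8, by Euclidean distance in log2(RPKM + 1) over the 4 libraries, were ptr2, dbp2 and cyc1, at distances of 0.424, 0.510 and 0.637. The RPKM of ght8 leaves out reads from its copied windows. Its mean in IP was 390 per kb of unique windows, a scale not worked out for these 3 genes. ptr2, a peptide transporter gene, had 308 and 282 RPKM in IP against 10.5 and 18.4 RPKM in input. dbp2, coding for an RNA helicase, had 293 and 296 RPKM in IP against 7.33 and 23.4 RPKM in input, and cyc1, coding for cytochrome c, had 245 and 234 RPKM in IP against 8.02 and 21.5 RPKM in input. The tagged gene itself, rpb3, had 71.6 and 65.5 RPKM in IP against 1.18 and 2.25 RPKM in input.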

How the data were processed

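NET-seq was performed on 2 biological replicates of strain YAM2492, giving IP and input libraries from each. The authors trimmed and mapped 50-base single-end reads uniquely with Bowtie to ASM294v2, allowing 2 mismatches, and deposited a table of normalized read counts and tag densities per feature and strand (coverage signal). All values in the deposited signal columns were whole multiples of 1 read (100%, tolerance 0.01 reads). Reads were recovered and set to RPKM with the first IP library anchored at 7100000 reads, the lowest depth stated for these libraries. Other depths follow from that anchor, and an error in it would scale all RPKM alike. 28 repeated pseudogene entries were left out. 0 columns belonged to no sample.

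limma (version 3.58.1) with a trend was run on log2(RPKM + 1), without a filter beyond 1 read, with a threshold of 0.05. edgeR (4.0.16) with TMM and DESeq2 (1.42.0) were run on the recovered reads. The fits were also run on simulated reads in which both groups had IP-like levels, depth and makeup. That run does not bear on the scaling of IP against input. Depths of 7100000 to 9823089 reads leave genes under 3 reads a library at the floor. Replicate numbers pair the libraries because the sample titles give an IP and an input library the same number. A shared number was taken to mean the same culture, which the titles do not state. Deviations of same-numbered libraries correlated at 0.06 over all units and 0.28 across those 1547 genes that had 100 or more reads in input. The members and lists were chosen with earlier results of these data known. Named genes are the 8 members, their antisense units and nearest neighbours, the listed control genes and carriers, rpb3 and the 3 genes most like the highest member. Sequences, unique windows, promoters and identities were taken from RefSeq ASM294v3, whose outer coding coordinates equal those of the table for all 8 members and for 98.0% of the 5112 genes matched; no protein table was used here, so coding-sequence identity replaces protein identity. Alternatives are given in the closing section.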

Additional observations from a re-analysis of the deposited data

How the results depend on the processing

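The main limit is scale. In place of 8270 units higher and 82 lower in IP, 819 were higher and 4859 lower after centring, 916 and 703 with quantile normalization, 4703 and 555 with totals without tRNA, rRNA and snRNA, 1312 and 1312 with edgeR and TMM, and 722 and 1135 with DESeq2. In the same order, the ght genes gave 2 higher and 5 lower, 2 and 1, 4 and 1, 3 and 1, and 2 and 1, and the 22 control genes gave 7 and 3, 5 and 0, 19 and 1, 11 and 3, and 7 and 3. Leaving out 1 library, with the lone library assumed to vary like the other group, gave 7589 to 7747 units higher, 43 to 116 lower (46 and 43 without the first and the second IP library), 6 to 7 ght genes and 20 to 22 control genes higher, and 0 lower in both lists.

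With the replicate block, 8465 units were higher and 79 lower. With the block and centring, 935 units were higher and 5115 lower, with 2 ght genes higher and 5 lower and 9 control genes higher and 3 lower; with the block and edgeR these were 1449 and 1401, 3 and 1, and 14 and 3. The block changed the call of ght7 alone among the members under library totals. ght7 (0.50) also passed at a pseudocount of 0.1 (2.20). Without either IP library (0.21 to 0.78) its spread came only from 2 input libraries at 0 reads, so that its test is void.

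ght2 and ght8 kept direction and call in all 17 alternatives. Values below 0 under centring, alone or with the block, were -1.37 for ght1, -3.23 for ght3, -0.72 for ght4, -2.26 for ght6 and -3.01 for ght7; their IP levels on the log2(RPKM + 1) scale lie under the shift of 3.50, which fixes these signs. Under quantile normalization ght1 was -0.28, ght3 -1.27 and ght7 -0.31. ght3 was -1.15 with totals without tRNA, rRNA and snRNA, -2.91 with edgeR, -2.97 with DESeq2 and -2.85 with the block and edgeR, and ght5 was -0.33, -0.41 and -0.26 under the last 3 of these. DESeq2 gave no adjusted p for ght6 and ght7, and a filter at a mean of 1 RPKM left out ght3 and ght7. Beyond the shift that each scaling builds in, the cause was not tested. Of the 8 members, the input order kept 4 in place when reads replaced reads per kb and 4 to 5 without 1 input library. Per kb of unique windows, the log2 density outside over inside the coding segment in IP was -0.59 for ght5 and -1.003 for ght8, against 0.43 and 0.12 per kb of length. Depth limits ght3, ght6 and ght7, with at most 20 reads in any library.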
